A study of Homo sapiens with 8 samples.

Results

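The 10 genes AKR1B10, AKR1C1, AKR1C2, AKR1C3, NQO1, TXNRD1, GCLC, GCLM, HMOX1 and ALDH3A1 encode detoxifying and antioxidant enzymes that are known targets of the transcription factor NRF2. They were chosen by name, as the rows of the count matrix whose Ensembl identifier carries one of these symbols in GENCODE 44, and they are 10 of the 58302 genes counted. RNA-seq was performed on total RNA of A549, a human lung adenocarcinoma cell line, with 4 libraries labelled siCTRL, transfected with a scramble siRNA, and 4 labelled siAPEX1, transfected with an siRNA against APEX1. APEX1 encodes APE1, a DNA repair endonuclease that also has a redox function, and the silencing in these libraries was transient. The comparison asks which of the NRF2 target genes differed between the 2 transfections.

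NRF2, the product of NFE2L2, is a transcription factor that is held in the cytoplasm and handed to degradation by KEAP1. Under electrophilic or oxidative stress it escapes KEAP1, pairs with a small MAF protein and binds the antioxidant response element in the regulatory DNA of its targets, where BACH1 competes with it as a repressor. A549 cells are known to carry a mutation that impairs KEAP1, and many of their NRF2 targets, though not all, are therefore highly expressed already without treatment.

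The antioxidant response element is shown here because it is the shared DNA feature by which these genes are usually grouped. The 9 bases TGACTCAGC were searched on both strands in the 10000 bases before the start of the MANE Select transcript of each gene in the human genome (GRCh38). They occurred before 5 of the 10 genes, AKR1C1, AKR1C2, NQO1, GCLC and HMOX1, and before 12.8% of 20039 protein-coding genes. The matches are printed below on the strand of the gene with 10 bases on each side. Capitals mark the element, which reads GCTGAGTCA where it lies on the opposite strand.
NQO1, 447 bases before the start, chr16:69726997-69727025: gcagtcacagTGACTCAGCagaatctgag
HMOX1, 3932 bases before the start, chr22:35377146-35377174: gctagattttGCTGAGTCAccagtgcctc
HMOX1, 8982 bases before the start, chr22:35372096-35372124: gtctgttttcGCTGAGTCAcggtctagag
HMOX1, 9011 bases before the start, chr22:35372067-35372095: atctgttttcGCTGAGTCAcggtcccggt
HMOX1, 9069 bases before the start, chr22:35372009-35372037: tgtttttcctGCTGAGTCAcggtcccgag
GCLC, 3148 bases before the start, chr6:53548239-53548267: cgcacaaagcGCTGAGTCAcggggaggcg
AKR1C1, 6335 bases before the start, chr10:4957062-4957090: tgtgcaagctGCTGAGTCAccctgactgc
AKR1C2, 5552 bases before the start, chr10:5009399-5009427: tgtgcaagctGCTGAGTCAccctgactgc

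HMOX1 held 4 matches, 3 of them in a cluster, and every other gene with a match held 1. The 29 bases printed for AKR1C1 and for AKR1C2 were the same. In a shorter window, from 250 bases before to 50 after the RefSeq start (GRCh38.p14), none of the 10 genes held the 9 bases, which 0.561% of 35116 such windows held. A gene can have several such windows, so the shares given for them are of windows and not of genes. The looser form TGACNNNGC, of which TGACTCAGC is a special case, occurred there in TXNRD1 and GCLM and in 13.3% of all windows. In GCLM it lay 34 bases before the start at chr1:93909446-93909474, where the strand of the gene reads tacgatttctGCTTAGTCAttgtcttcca with the element in capitals. These 34 bases run from the RefSeq start to the far end of the element, while the distances listed above run to its near end. A match describes the letters of the DNA and is no evidence of binding.

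**Figure D1:**
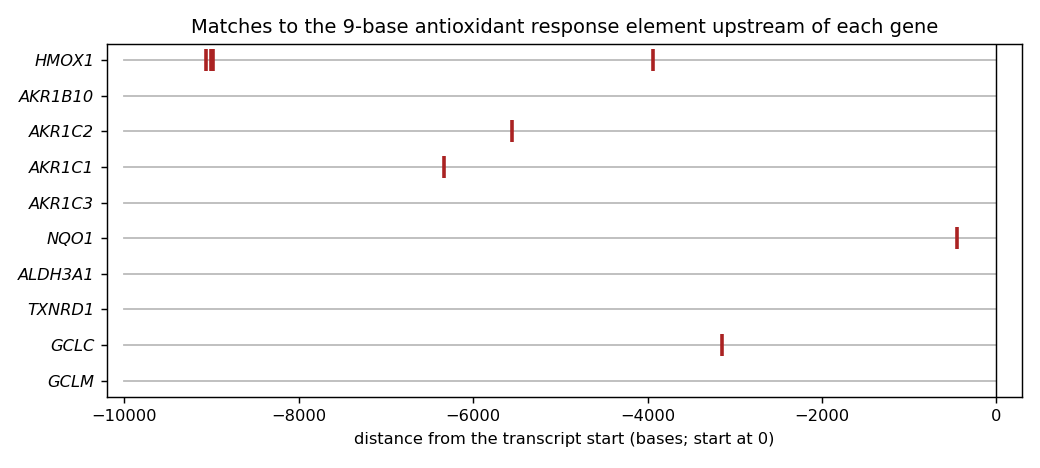
Distance in bases from the start of the MANE Select transcript (x axis, start at 0) of each match to TGACTCAGC on either strand, for the 10 genes (y axis); each red tick is 1 match. HMOX1 has 4 ticks, NQO1 has the nearest at 447 bases, and 5 genes have none.

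Between 1639796 and 1949886 reads were counted on genes in the libraries labelled siCTRL and between 1348386 and 1619500 in those labelled siAPEX1, so that every library labelled siAPEX1 was smaller. Levels are given in CPM, counts relative to the size of the library after TMM factors had corrected it for composition. APEX1 was at 27.7 ± 2.18 CPM (SD, n = 4) in the libraries labelled siCTRL and 17460 ± 1895 (SD, n = 4) in those labelled siAPEX1, the opposite of what the label says, so directions below are given for libraries as they are labelled. Reads of the siRNA itself may be counted on APEX1, and silencing could not be checked with these counts. The study assessed it by the level of the protein, which was not analysed here. Nuclear protein-coding genes other than APEX1 took between 14.99% and 15.7% of the counts in the libraries labelled siCTRL and between 12.01% and 12.7% in those labelled siAPEX1. The epithelial keratins that mark A549 cells were present and lower in the libraries labelled siAPEX1, with log2 fold changes of libraries labelled siAPEX1 over siCTRL (log2FC) of -1.01 for KRT8, -1.36 for KRT18 and -2.31 for KRT19 (edgeR quasi-likelihood test, adjusted p = 2.96e-08, 2.35e-15 and 6.15e-19). EPCAM had 8 to 9 counts against 0 to 5 and was not tested. Without TMM factors, these 4 markers summed to between 414 and 513 CPM in the libraries labelled siCTRL and to between 107 and 154 CPM in those labelled siAPEX1. In bulk RNA, fewer cells of a type and less RNA per cell cannot be told apart. The 4 markers of leukocytes, endothelium and fibroblasts summed to 3 to 12 counts against 1 to 4, and PECAM1 was at 0 in all 8 libraries. The part of library size, the coding share and the epithelial markers in the results below was not tested.

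HMOX1, AKR1B10 and AKR1C2 were higher in the libraries labelled siAPEX1, NQO1 and ALDH3A1 were lower, and AKR1C1, AKR1C3, TXNRD1, GCLC and GCLM did not pass the test. All 10 genes passed the filter on low counts, and a gene passed the test at an adjusted p of at most 0.05 (edgeR quasi-likelihood test, Benjamini-Hochberg adjustment over 5368 genes). Passing in either direction, these 5 of 10 genes stand beside 31.8% of all genes tested. The 3 higher genes stand beside 15.9%, and the 2 lower genes beside 15.8%. With an absolute log2FC of at least 1 as well, HMOX1 alone was differentially expressed, beside 9.28% of all genes (3.6% higher and 5.68% lower). The CPM of the 2 groups did not overlap in the same 5 genes, beside 28.9% of all genes. The median log2FC was 0.09 over the 10 genes and -0.0035 over all genes tested. Of the 10 genes, 8 lay above 0 and 2 below, beside 49.7% of all genes tested above 0. Among the 8, AKR1C1, AKR1C3, TXNRD1 and GCLM lay between 0.03 and 0.12 and changed sign when libraries were scaled by size alone. The study describes its replicates as biological, but the labels do not name separate cultures, so the p-values measure the spread between these libraries, which may in part be technical.

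**Figure D2:**
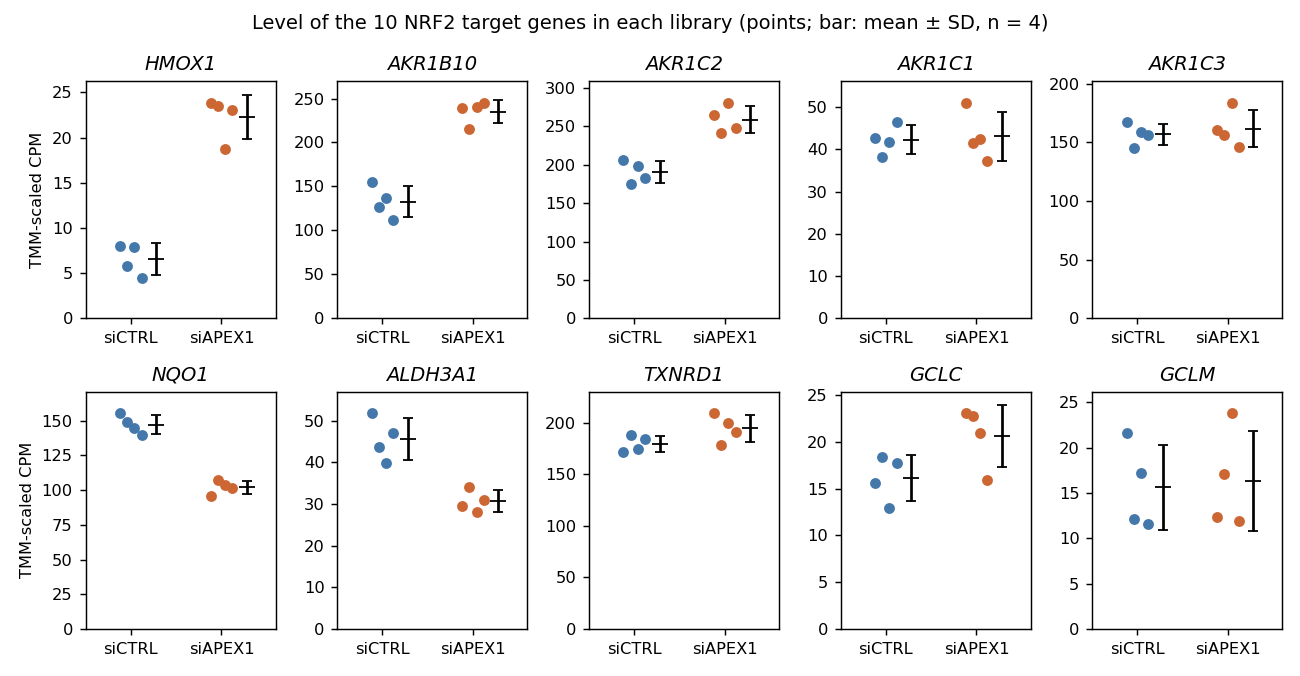
TMM-scaled CPM (y axis, from 0, its own scale in each panel) of each of the 10 genes in the 4 libraries labelled siCTRL (blue points) and the 4 labelled siAPEX1 (orange points), with the mean ± SD of each group as a black bar (n = 4). The groups do not overlap for HMOX1, AKR1B10, AKR1C2, NQO1 and ALDH3A1.

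HMOX1 (ENSG00000100292, chromosome 22 from 35380361 to 35394214, plus strand) encodes heme oxygenase 1, which breaks heme down to biliverdin, iron and carbon monoxide. It had 16, 12, 17 and 8 counts in siCTRL replicates 1 to 4 and 29, 29, 26 and 29 in siAPEX1 replicates 1 to 4. The raw counts were thus higher in each of the smaller libraries labelled siAPEX1, with no overlap. In CPM it stood at 8.05, 5.81, 7.88 and 4.43 in the libraries labelled siCTRL and at 23.9, 23.5, 18.7 and 23.0 in those labelled siAPEX1. The log2FC was 1.74 (standard error 0.230, 95% interval 1.28 to 2.20, adjusted p = 1.69e-08), or 3.33-fold. This was the least counted of the 10 genes in the libraries labelled siCTRL, with 53 counts over the 4, so its size is less precise than that of the more abundant genes.

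AKR1B10 (ENSG00000198074, chromosome 7 from 134527567 to 134541412, plus strand) encodes an aldo-keto reductase that reduces retinal and lipid aldehydes. It stood at 155, 126, 137 and 112 CPM in siCTRL replicates 1 to 4 and at 239, 216, 241 and 245 CPM in siAPEX1 replicates 1 to 4. The lowest library labelled siAPEX1 lay above the highest labelled siCTRL. Its log2FC was 0.83 (standard error 0.0969, 95% interval 0.63 to 1.02, adjusted p = 7.41e-10), or 1.77-fold, and its share of the counts of the 10 genes went from 14.2% ± 1.31 to 21.7% ± 1.14 (SD, n = 4 each). Of the 50-base stretches of its transcript, 18% also occur in a transcript of another gene, 11.3% in AKR1B15. Of its 100-base stretches, the read length before adapters were removed, 1.97% do. Some of its reads, mainly short ones, could thus map to more than 1 place and be dropped. AKR1B15 itself, named after its values were seen, had 3 to 7 counts against 6 to 10 and was too low for the fit (exact permutation test, two-sided, p = 0.0286, the smallest that 4 against 4 can give).

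AKR1C1, AKR1C2 and AKR1C3 are neighbours on chromosome 10 and encode hydroxysteroid dehydrogenases that also reduce ketones and aldehydes. AKR1C2 (ENSG00000151632, 4987775 to 5018031, minus strand) stood at 206, 175, 198 and 183 CPM in siCTRL replicates 1 to 4 and at 265, 241, 281 and 249 CPM in siAPEX1 replicates 1 to 4. The groups did not overlap, and the log2FC was 0.44 (standard error 0.0917, 95% interval 0.26 to 0.63, adjusted p = 1.14e-04). Its neighbours did not pass the test. AKR1C1 (ENSG00000187134, 4963253 to 4983283, plus strand) ranged from 38.3 to 46.5 CPM against 37.3 to 51.1, with a log2FC of 0.03 (95% interval -0.24 to 0.29, adjusted p = 0.899). AKR1C3 (ENSG00000196139, 5035354 to 5107686, plus strand) ranged from 145 to 167 CPM against 146 to 184, with a log2FC of 0.05 (95% interval -0.15 to 0.24, adjusted p = 0.762). The groups overlapped for both.

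The difference within the AKR1C family also stood in ratios of counts within a library, which no scaling of the libraries can move. The ratio of AKR1C2 to AKR1C1 ranged from 3.93 to 4.81 in the libraries labelled siCTRL and from 5.19 to 6.66 in those labelled siAPEX1, a log2 difference of 0.42. The ratio of AKR1C2 to AKR1C3 ranged from 1.17 to 1.25 and from 1.53 to 1.70, a log2 difference of 0.40. Both gave the smallest p of an exact permutation test (two-sided, p = 0.0286, adjusted p = 0.0343 over 6 ratios chosen after the values were seen). AKR1C2 shared 47.3% of its 50-base stretches with other genes, 45.7% with AKR1C1, while 22.7% of those of AKR1C1 and 18.6% of those of AKR1C3 were shared. Of 100-base stretches, the read length before adapters were removed, AKR1C2 shared 27.8%, 25.6% with AKR1C1. AKR1C1 shared 12.6% and AKR1C3 7.82% at that length. Reads from these stretches cannot be assigned when they are short, so the split of counts between AKR1C1 and AKR1C2 is uncertain.

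NQO1 and ALDH3A1 were lower in the libraries labelled siAPEX1. NQO1 (ENSG00000181019, chromosome 16 from 69706996 to 69726668, minus strand) encodes a quinone reductase that is a classical reporter of NRF2 activity, and it stood at 155, 149, 145 and 139.5 CPM in siCTRL replicates 1 to 4 and at 95.5, 107, 104 and 102 CPM in siAPEX1 replicates 1 to 4. Every library labelled siAPEX1 lay below every library labelled siCTRL, with a log2FC of -0.53 (standard error 0.0970, 95% interval -0.72 to -0.33, adjusted p = 1.77e-05). An antisense gene, ENSG00000261602, overlaps 575 exonic bases of NQO1 and had 3 counts in siCTRL replicate 4 and 0 in the other libraries. The strand setting of the counts is not given in the sources used here, so reads from the shared bases cannot be assigned to a strand.

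ALDH3A1 (ENSG00000108602, chromosome 17 from 19737984 to 19748943, minus strand) encodes an aldehyde dehydrogenase that oxidizes aldehydes from lipid peroxidation. It stood at 51.8, 43.6, 39.9 and 47.0 CPM in siCTRL replicates 1 to 4 and at 29.6, 34.1, 28.1 and 31.0 CPM in siAPEX1 replicates 1 to 4. An antisense gene that shares 98 exonic bases with it, ENSG00000264785, had 0 counts in all 8 libraries. The groups did not overlap, and the log2FC was -0.57 (standard error 0.140, 95% interval -0.85 to -0.29, adjusted p = 1.19e-03). The ratio of NQO1 to ALDH3A1 ranged from 2.97 to 3.63 in the libraries labelled siCTRL and from 3.14 to 3.69 in those labelled siAPEX1, so that the groups overlapped (log2 difference 0.03, exact permutation test, two-sided, p = 0.714, adjusted p = 0.714 over the same 6 ratios).

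The members of the thioredoxin and glutathione systems, TXNRD1, GCLC and GCLM, did not pass the test. TXNRD1 (ENSG00000198431, chromosome 12 from 104215779 to 104350307, plus strand), thioredoxin reductase 1, ranged from 172 to 188 CPM against 179 to 209, with a log2FC of 0.12 (95% interval -0.07 to 0.30, adjusted p = 0.365). GCLC and GCLM encode the catalytic and the modifier subunit of glutamate-cysteine ligase, the first enzyme of glutathione synthesis. GCLC (ENSG00000001084, chromosome 6 from 53497341 to 53616970, minus strand) ranged from 13.0 to 18.4 CPM against 15.9 to 23.1, with a log2FC of 0.36 (95% interval -0.03 to 0.74, adjusted p = 0.159). GCLM (ENSG00000023909, chromosome 1 from 93885199 to 93909456, minus strand) ranged from 11.6 to 21.6 CPM against 11.9 to 23.8, with a log2FC of 0.07 (95% interval -0.38 to 0.52, adjusted p = 0.851). The groups overlapped in all 3 genes. ENSG00000231683, on the same strand as GCLC, shares 529 exonic bases with it and had 6 to 9 counts against 0 to 1, and reads over both genes are dropped in the counting. With 15 to 43 counts per library, the intervals of GCLC and GCLM are wide, and a change of the size seen for AKR1C2 lies within both.

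The fold changes moved together with the scaling of the libraries. When the libraries were scaled by their size alone, the median over all genes tested was -0.34, and AKR1C3 and TXNRD1 were then lower along with NQO1 and ALDH3A1 (edgeR, adjusted p = 0.0112 for AKR1C3 and 0.0494 for TXNRD1, the lowest of their 17 settings). AKR1C2 did not pass the test there (log2FC 0.10, adjusted p = 0.401, with a range of 2.33e-05 to 0.401 over all settings). Relative to that median, AKR1C2 lay at 0.45, AKR1C3 at 0.05 and TXNRD1 at 0.12, beside 0.44, 0.05 and 0.12 with TMM factors. HMOX1 and AKR1B10 were higher and NQO1 and ALDH3A1 lower in each of 17 settings, except that HMOX1 was left untested in the 1 that asked for at least 10 counts in every library, with log2FC values from 1.40 to 1.85, from 0.48 to 0.91, from -0.87 to -0.47 and from -0.91 to -0.50.

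**Figure D3:**
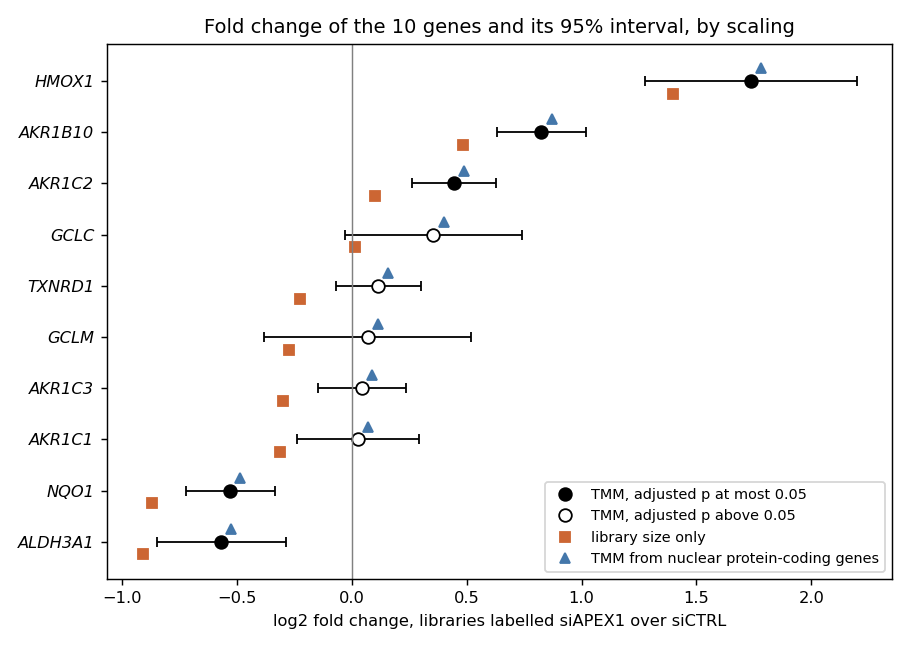
Log2FC (x axis, libraries labelled siAPEX1 over siCTRL) of the 10 genes (y axis) with TMM factors (circles, filled where the adjusted p is at most 0.05, bars the 95% interval), with library size only (squares) and with TMM factors from nuclear protein-coding genes (triangles). HMOX1, AKR1B10, AKR1C2 and GCLC stay above 0 in all 3, and NQO1 and ALDH3A1 below 0. AKR1C3, TXNRD1, GCLM and AKR1C1 change sign with library size only.

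Counts of HMOX1 relative to each of the other 9 genes in the same library were higher in all 4 libraries labelled siAPEX1 than in all 4 labelled siCTRL. To NQO1 the ratio was 0.0442 ± 0.0107 in the libraries labelled siCTRL and 0.219 ± 0.0289 in those labelled siAPEX1 (SD, n = 4 each), a log2 difference of 2.30. The log2 difference was largest against ALDH3A1, at 2.33, and smallest against AKR1B10, at 0.94, and it lay between 1.33 and 1.75 against AKR1C1, AKR1C2, AKR1C3, TXNRD1, GCLC and GCLM. Each of the 9 had the smallest p of the exact permutation test (two-sided, p = 0.0286, adjusted p = 0.0286 over the 9). HMOX1 was chosen for these ratios with its fold change known, and the 9 ratios share its counts. Against NQO1 and ALDH3A1, which were lower with no overlap while HMOX1 was higher, the ratio could not overlap. Raw counts, which the ratios use, were also lower with no overlap for AKR1C1 (79 to 90 against 47 to 62). The same held for AKR1C3 (283 to 343 against 184 to 255) and TXNRD1 (333 to 388 against 220 to 277). Since raw counts of HMOX1 were higher with no overlap, those ratios could not overlap either. The p of each of these ratios was fixed in advance and is no further test. Among the other ratios, AKR1B10 to NQO1 ranged from 0.806 to 0.997 in the libraries labelled siCTRL and from 2.02 to 2.5 in those labelled siAPEX1 (log2 difference 1.36, exact permutation test, two-sided, p = 0.0286, adjusted p = 0.0343). AKR1B10 thus had fewer counts than NQO1 in each library labelled siCTRL and more in each labelled siAPEX1. Since AKR1B10 was higher and NQO1 lower, each with no overlap, this ratio could not overlap between the groups. Its p was fixed in advance and is no further test.

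**Figure D4:**
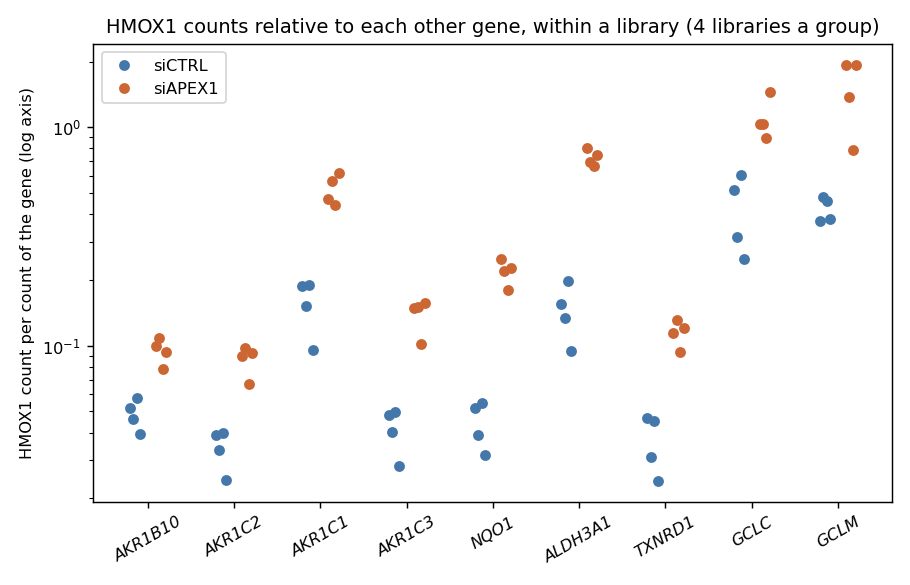
Counts of HMOX1 per count of each of the other 9 genes (y axis, log scale) in the 4 libraries labelled siCTRL (blue) and the 4 labelled siAPEX1 (orange); each point is 1 library. The groups do not overlap for any of the 9 genes.

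Per kilobase of the MANE Select transcript, on the scale of TMM-scaled CPM, the level in the libraries labelled siCTRL was highest for AKR1C3 at 132 ± 7.71 (SD, n = 4), followed by AKR1B10 at 81.9 ± 11.1. AKR1C2 at 59.2 ± 4.40 and NQO1 at 58.4 ± 2.68 came next and overlapped, then TXNRD1 at 46.5 ± 1.99, ALDH3A1 at 27.8 ± 3.10 and AKR1C1 at 6.47 ± 0.518. GCLC at 4.27 ± 0.645, HMOX1 at 4.21 ± 1.12 and GCLM at 3.20 ± 0.965 were lowest, and each overlapped the next in this order. In the libraries labelled siAPEX1, AKR1B10 at 145 ± 8.14 and AKR1C3 at 136 ± 13.5 were highest and overlapped, NQO1 at 40.5 ± 1.93 lay below TXNRD1 at 50.4 ± 3.38, and HMOX1 at 14.4 ± 1.54 lay above AKR1C1, GCLC and GCLM. The order depends on the transcript taken for the length: per kilobase of all annotated exons, AKR1B10 was highest in both groups and AKR1C3 the third. The length was not corrected for stretches shared with other genes, whose reads can be dropped. Of 50-base stretches, 47.3% were shared for AKR1C2, 22.7% for AKR1C1 and 18.6% for AKR1C3, against 0% for TXNRD1 and HMOX1. Levels of genes with shared stretches may thus be too low in this order.

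Summed over the 10 genes, the level in CPM without TMM factors was 1025 ± 57.8 in the libraries labelled siCTRL and 945 ± 51.5 in those labelled siAPEX1 (SD, n = 4 each), with ranges that overlapped, 970.6 to 1103 and 894 to 999. On the TMM scale the groups did not overlap, with 901 to 995 against 1037 to 1143 CPM, and neither did the share of nuclear protein-coding counts without APEX1, with 0.643% to 0.703% against 0.739% to 0.811%. The sign of this difference turned with the denominator, from a log2 ratio of -0.12 over all counts on genes to 0.22 as that share.

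Of the 10 regulators of NRF2 examined, 7 passed the filter on low counts. Of these, 3 were higher and 2 lower, beside 15.9% and 15.8% of all genes tested, and 2 did not pass the test. NFE2L2, the gene of NRF2, had 36, 54, 49 and 38 counts in siCTRL replicates 1 to 4 and 53, 53, 55 and 50 in siAPEX1 replicates 1 to 4. Scaled to CPM the groups did not overlap, with 22.0 ± 3.36 against 41.5 ± 2.12 (SD, n = 4 each) and a log2FC of 0.91 (standard error 0.152, adjusted p = 3.02e-06). MAFK, a small MAF partner of NRF2, was higher with a log2FC of 0.70 (adjusted p = 1.19e-03), but not with library size only (0.36, adjusted p = 0.0920, with a range of 5.72e-04 to 0.0920 over all settings). BACH1, the repressor that competes with NRF2, was higher with 0.67 (adjusted p = 0.0389), a call that passed the test in 8 of 17 settings and not with DESeq2 (adjusted p = 0.151, with a range of 0.0242 to 0.307 over all settings). SQSTM1, whose product p62 sequesters KEAP1, was lower with -0.72 (adjusted p = 2.25e-08). KEAP1 had 13, 14, 11 and 10 counts in the libraries labelled siCTRL and 7, 3, 0 and 3 in those labelled siAPEX1, too few for the fit. In CPM, siAPEX1 replicate 1 at 5.76 lay among the 5.10 to 6.78 of the libraries labelled siCTRL, and the exact permutation test gave p = 0.0857 (two-sided).

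Of 10 genes of glutathione supply, use and export, 8 passed the filter, 5 were lower, none was higher and 3 did not pass the test, beside 15.8% lower and 15.9% higher over all genes tested. The median log2FC of the 8 was -0.52. The list was chosen with earlier results known and does not hold GCLC and GCLM, the members that make glutathione, whose log2FC values were 0.36 and 0.07 and did not pass the test. MGST1, a membrane-bound glutathione transferase, was at 80.8 ± 7.20 against 32.4 ± 6.39 CPM (SD, n = 4 each; log2FC -1.32, standard error 0.131, adjusted p = 5.24e-12). ABCC3, an exporter of conjugates, had a log2FC of -1.14 (adjusted p = 3.81e-10) and GSTP1, a cytosolic glutathione transferase, one of -0.88 (adjusted p = 2.02e-09). These genes and the epithelial keratins were lower in the same libraries.

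The 9 genes of thioredoxin and NADPH supply all passed the filter, with a median log2FC of -0.08. Of these, 2 were higher and 1 lower, beside 15.9% and 15.8% of all genes tested, and 6 did not pass the test. TXN, the substrate of TXNRD1, had a log2FC of 0.40 (adjusted p = 1.85e-03) and TKT, transketolase of the pentose phosphate pathway, one of 0.41 (adjusted p = 1.43e-04). Scaled by library size alone, neither passed the test (0.05 for TXN, adjusted p = 0.703, and 0.07 for TKT, adjusted p = 0.540, each the highest over all settings).

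Among 14 further detoxification and iron genes, 9 passed the filter, with a median of -0.15. Of these, 2 were higher and 1 lower, beside 15.9% and 15.8% of all genes tested, and 6 did not pass the test. Both higher genes encode ferritin, the store for the iron that heme oxygenase 1 sets free. FTL, the light chain, was at 563 ± 56.1 against 943 ± 47.7 CPM (SD, n = 4 each; log2FC 0.74, standard error 0.0873, adjusted p = 7.14e-10), and FTH1, the heavy chain, at 118 ± 8.16 against 187 ± 11.6 CPM (0.66, standard error 0.0948, adjusted p = 1.11e-07). The rise of HMOX1 was the larger, since the ratio of FTL to HMOX1 was between 71.8 and 117 in the libraries labelled siCTRL and between 38.7 and 50.8 in those labelled siAPEX1 (log2 difference -1.02, exact permutation test, two-sided, p = 0.0286, adjusted p = 0.0343 over the 6 added ratios). BLVRB, biliverdin reductase B, was lower with a log2FC of -0.44 (adjusted p = 0.0142). It did not pass with DESeq2 (adjusted p = 0.0915) or without siAPEX1 replicate 2 (adjusted p = 0.0945, with a range of 7.15e-06 to 0.0945 over all settings).

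Of 14 other aldo-keto reductases and aldehyde dehydrogenases, 8 passed the filter, with a median of -0.16. Of these, 1 was higher and 1 lower, beside 15.9% and 15.8% of all genes tested, and 6 did not pass the test. AKR1B1, aldose reductase, of the same subfamily as AKR1B10, was at 195 ± 20.6 against 99.9 ± 9.92 CPM (SD, n = 4 each; log2FC -0.97, standard error 0.102, adjusted p = 2.81e-11). The ratio of AKR1B10 to AKR1B1 was between 0.599 and 0.741 in the libraries labelled siCTRL and between 2.02 and 2.74 in those labelled siAPEX1 (log2 difference 1.80, exact permutation test, two-sided, p = 0.0286, adjusted p = 0.0343 over the 6 added ratios). Since AKR1B10 was higher and AKR1B1 lower, each with no overlap in CPM, this ratio could not overlap between the groups. The p of the ratio was fixed in advance and is no further test. ALDH2, the mitochondrial aldehyde dehydrogenase, was higher, at 16.6 ± 1.46 against 29.6 ± 3.84 CPM (log2FC 0.83, adjusted p = 1.29e-04), while ALDH3A1 was lower.

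**Figure D5:**
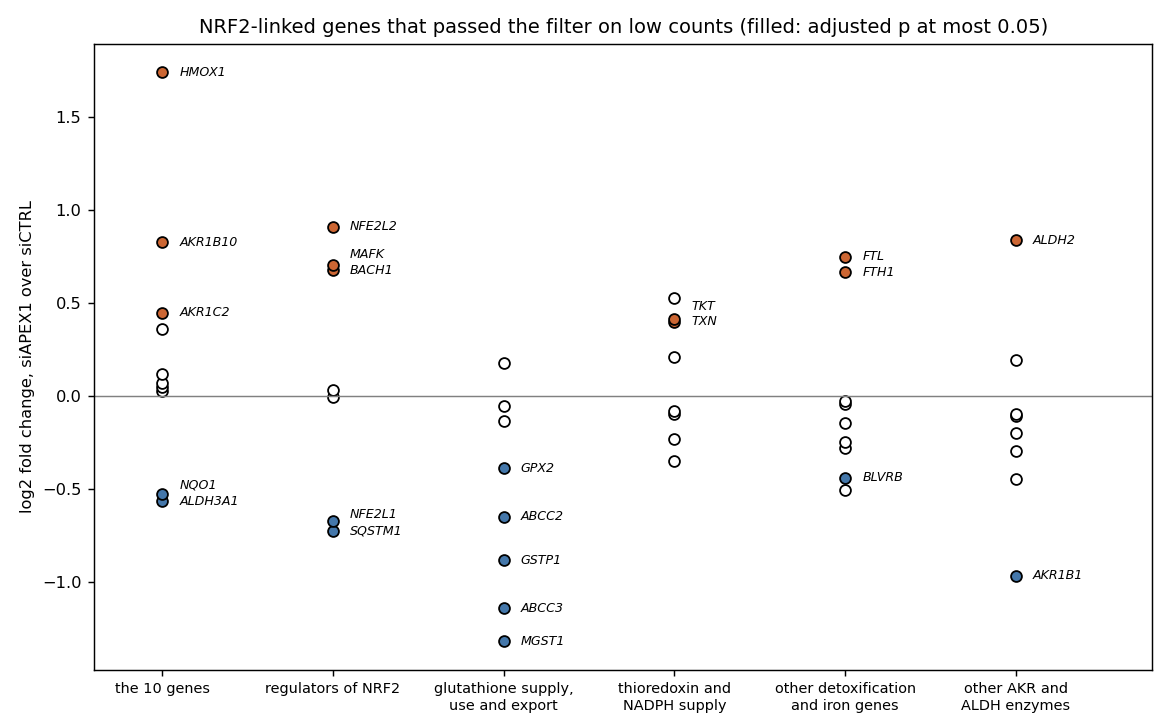
Log2FC (y axis, libraries labelled siAPEX1 over siCTRL) of the genes with enough counts to be tested, in the 10 genes and 5 lists of related genes (x axis); filled points passed the test (orange higher, blue lower) and carry their names, open points did not, and 1 gene of the thioredoxin and NADPH list is not drawn. The list on glutathione has 5 lower genes and none higher, while the 10 genes, the regulators, the detoxification and iron genes and the AKR and ALDH enzymes have filled points on both sides of 0.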

How the data were processed

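RNA-seq libraries of A549 cells, 4 labelled siCTRL and 4 labelled siAPEX1, were prepared with a small RNA kit that tails 3′ ends, in a protocol the authors modified to capture primary miRNA transcripts as well. The authors removed adapters, aligned single-end reads to GRCh38 with STAR 2.5.3a and deposited whole-number counts per Ensembl gene, without normalization, from its GeneCounts function, which drops reads that map to several places or genes. The Ensembl release and the strand setting are not given in the sources used here. Symbols, positions and transcripts came from GENCODE 44, which holds 57532 of the 58302 genes. Sequences came from GRCh38 and from RefSeq promoter windows. Members and lists were chosen with earlier results of these data known.

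Counts were tested with edgeR 4.0.16 in R 4.3.3 (TMM factors, robust quasi-likelihood test, filterByExpr, at least 10 counts and a total of 15). CPM are TMM-scaled. Standard errors were derived from log2FC and the F statistic, as |log2FC|/√F. Ratios were formed from log2(count + 0.5) and tested over the 70 labelings of 4 libraries against 4. Printed ranges of ratios are of the counts themselves. Depth was between 1348386 and 1949886 counts per library. The genes named are the 10 members, APEX1, in each list every gene past the test and the fold threshold and the 3 past the test with the largest absolute log2 fold change, and NFE2L2, KEAP1 and BACH1. A gene that the rule takes is not reported here by name, and counts over its list include it. The alternatives were scaling by RLE or upper-quartile factors, by TMM factors from nuclear protein-coding genes or by library size alone, DESeq2 1.42.0, 2 other filters, a fold threshold of 0.75, the replicate number as a block, other pseudocounts for the ratios and each library left out in turn. The programs were tested on simulated data.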

Additional observations from a re-analysis of the deposited data

Results flagged for a closer look

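HMOX1 stood at 18.7 CPM in siAPEX1 replicate 3, away from the 23.0 to 23.9 CPM of the other 3 libraries labelled siAPEX1, and still above the 8.05 CPM of the highest library labelled siCTRL. AKR1B1 stood at 226 CPM in siCTRL replicate 1 against 183 to 188 in the other 3 libraries labelled siCTRL. BLVRB stood at 33.8 CPM in siCTRL replicate 4 against 47.5 to 49.3 in the other 3. Each of these libraries lay farther from the others of its group than Dixon's 95% criterion allows for 4 values. Of 52 group values examined, 3 were so marked, and chance marks about 1 in 20.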

How the results depend on the processing

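The counts of members past the test stayed at 3 higher and 2 lower when any 1 library was left out. With library size only, 4 members were lower and 2 higher, beside 2298 of 5368 genes past the test in either direction. The median of the members was then -0.25, beside -0.34 over all genes tested. AKR1C2 no longer passed (0.10), and AKR1C1 (-0.31), AKR1C3 (-0.30), TXNRD1 (-0.23) and GCLM (-0.27) changed sign. That setting moved the genes differentially expressed from 193 higher and 305 lower to 84 higher and 655 lower. With every gene of at least 1 count, AKR1C1 was at -0.066, AKR1C3 at -0.049, GCLM at -0.026 and the median at -0.0022. With at least 10 counts in every library, they were at -0.059, -0.041, -0.017 and -0.017, and 0 members passed the fold threshold, since HMOX1 was then not tested. At a threshold of 0.75, 2 members did, HMOX1 and AKR1B10, and the share of all genes past that threshold was not computed. Leaving out 1 library moved AKR1C1 between -0.034 and 0.11 and GCLM between -0.16 and 0.26. The summed level had a log2 ratio of 0.22 against nuclear protein-coding counts and 0.22 on the TMM scale, chosen after seeing the data. The cause of these moves was not tested. DESeq2 called 1123 genes in place of 1705. Samples with the same replicate number did not deviate together (correlations from -0.0373 to -0.0035), and with the replicate number as a block 1599 genes passed, while the members stayed at 3 higher and 2 lower. The ratios reach no p under 0.0571 with 1 library left out. Of the 10 members, depth limits GCLC, GCLM and HMOX1 most.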
